A study of Homo sapiens with 7 samples.

Results

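The core genes of the Hippo pathway were examined for peaks of N6-methyladenosine (m6A), a methyl mark placed on adenosines inside mRNA. The 10 genes were chosen by name (NF2, STK3, STK4, SAV1, LATS1, LATS2, YAP1, WWTR1, TEAD1 and TEAD2), out of 13566 gene IDs with a peak in any list. All 10 had at least 1 peak under an Ensembl ID whose peaks lay in the gene's RefSeq span on hg38. The RNA came from HEK-293T, an established human embryonic kidney line that carries the SV40 large T antigen. Sample titles call the captured libraries treated and the inputs control. Beyond these words the labels name no treatment or genetic change of the cells. In MeRIP, an anti-m6A antibody pulled down fragments of polyA RNA. In m6A-ORL, chemistry takes the antibody's place: fragments went through NO/O2, TDO and the probe BA, which leaves biotin on the RNA, and were bound to streptavidin and eluted with DTT. Each method has 2 captured libraries. Both MeRIP libraries and m6A-ORL replicate 2 are labelled polyA RNA and m6A-ORL replicate 1 is labelled total RNA, so RNA type and replicate cannot be told apart within m6A-ORL. All libraries are from 1 line. Whether the replicates are separate cultures is not in the labels, so spread and p-values may be technical. The 3 inputs, 1 labelled for MeRIP and 1 for each m6A-ORL replicate, were not analysed here.

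The Hippo pathway is a kinase cascade that restrains growth in response to cell contact and tension in the cytoskeleton. At the membrane NF2 (merlin) favours activation of the kinases STK3 and STK4 (MST2 and MST1), which with the scaffold SAV1 activate the kinases LATS1 and LATS2. LATS1 and LATS2 phosphorylate the coactivators YAP1 and WWTR1 (TAZ), which are then held in the cytoplasm or degraded, and unphosphorylated YAP1 and WWTR1 enter the nucleus and act through TEAD transcription factors.

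The deposited lists held 7661 to 20760 peaks each, in 4495 to 9791 genes. Read depth is unknown, and the number of peaks limits the precision. Of 4 markers of the line, IRS4, PAX2 and NEFM had peaks in both MeRIP lists, as did 65.9% of all gene IDs. LIN28B had no assigned peak. By m6A-ORL, IRS4 had 5 peaks in the total RNA list and 6 in the polyA list, NEFM had 0 and 3, and PAX2 had 0 and 0. Of 10 markers of other cell types 8 had no assigned peak. The fibroblast genes COL1A1 (0 and 1 peaks by MeRIP, 8 in the total RNA and 1 in the polyA m6A-ORL list) and DCN (1 peak, in the total RNA m6A-ORL list) were the others. A peak list does not measure expression, so a gene without a peak can be unexpressed, unmethylated or under the peak caller's threshold, and these cannot be told apart.

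By MeRIP, 7 of the 10 Hippo genes had peaks (77.3% of all gene IDs did), and each of the 7 (NF2, SAV1, LATS1, LATS2, YAP1, TEAD1 and TEAD2) had them in both lists. Among all gene IDs 65.9% had a peak in both MeRIP lists, and of those with any MeRIP peak 85.2% had it in both, so the Hippo genes lie near the background. With the better-scored part of each list 4 Hippo genes, and at equal list length 3, had a peak in both MeRIP lists. By m6A-ORL, 9 of the 10 had a peak, against 66.9% of gene IDs. None had one in both m6A-ORL lists, against a background of 19.3%, and so none had peaks in all 4 lists (15.8%). The total RNA list held 5 of the 10 (53.1% of gene IDs) and the polyA list 4 (33.1%). The m6A-ORL peaks of NF2, WWTR1, TEAD1 and TEAD2 were all in the polyA list, and those of STK3, STK4, SAV1, LATS1 and YAP1 were all in the total RNA list. LATS2 had no m6A-ORL peak.

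**Figure D1:**
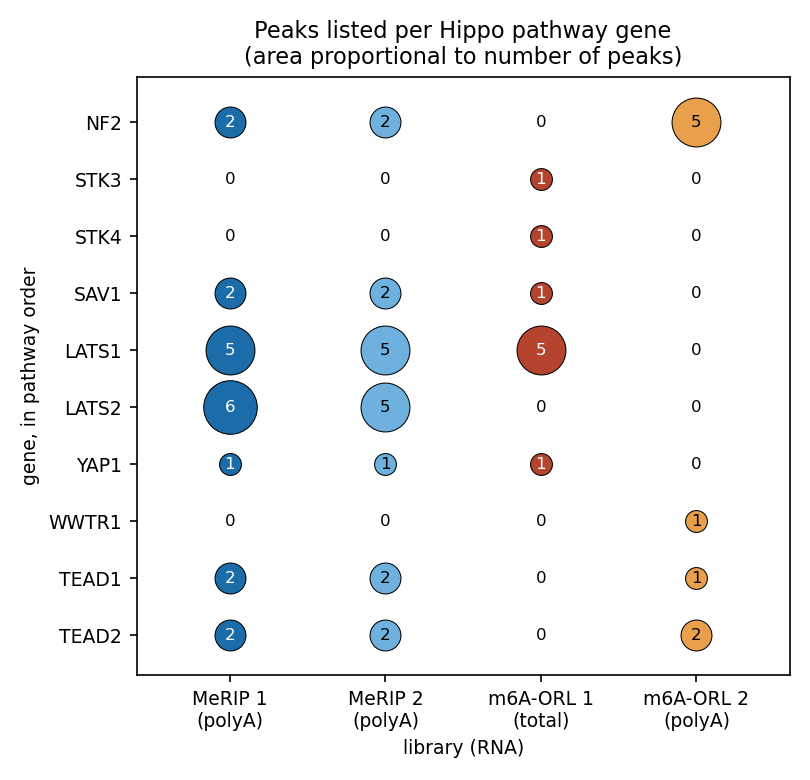
Number of listed peaks for each Hippo pathway gene (rows, in pathway order) in each captured library (columns, with the labelled RNA type); the area of a circle is proportional to the number printed in it. The MeRIP columns differ only for LATS2 (6 and 5), and no row has a circle in both m6A-ORL columns.

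This separation of the m6A-ORL lists has the following background. A peak in replicate 1 and not in replicate 2 was listed for 33.8% of gene IDs, and 5 of the 10 Hippo genes were of this kind. A peak in replicate 2 and not in replicate 1 was listed for 13.8%, and 4 of the 10 were of this kind. Of the 9081 gene IDs with any m6A-ORL peak, 28.8% had one in both lists, against 0 of 9 Hippo genes. Of the 7 Hippo genes in both MeRIP lists, 6 had an m6A-ORL peak, where 61.9% of such gene IDs did. Each of the 6 had it in exactly 1 m6A-ORL list. That is 6 of the 7, against 37.9% of all gene IDs in both MeRIP lists. No test was made on these counts, since the genes were chosen with earlier results known and genes are not replicates.

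Summed over the 10 genes, MeRIP listed 20 peaks in replicate 1 and 19 in replicate 2, and m6A-ORL listed 9 in each. The means were 19.5 ± 0.707 and 9 ± 0 (SD, n = 2 each), and the methods' counts do not overlap. Taken as a share of each list, they do. MeRIP replicate 1 had 0.096% of its peaks in the Hippo genes, while replicate 2 had 0.094%. The total RNA m6A-ORL list had 0.082% there, while the polyA list had 0.1175%. Both MeRIP shares thus fell between the m6A-ORL shares. For the difference of 10.5 peaks the exact permutation test (two-sided) gave p = 0.33, the smallest value this design can give. With only the best-scored peaks of each list, as many as the shortest list holds, the difference was -3.5 peaks, with m6A-ORL then above MeRIP (exact permutation p = 0.33). The median number of peaks per gene with a peak was 2 in each MeRIP list, for the Hippo genes and for all genes. In the m6A-ORL lists it was 1 for all genes, and 1 and 1.5 for the Hippo genes.

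NF2 encodes merlin, the membrane-linked tumour suppressor at the top of the cascade (ENSG00000186575; hg38 chromosome 22, 29603556 to 29698600, plus strand). It had 2 peaks in each MeRIP list, none in the total RNA m6A-ORL list and 5 in the polyA m6A-ORL list. Of the Hippo genes with MeRIP peaks, it was the only one for which an m6A-ORL list held more peaks than either MeRIP list. This depended on the score: with the better-scored part of each list 1 m6A-ORL peak was left, beside 4 MeRIP peaks summed over both lists. At equal list length all 5 stayed. Only 1 other gene ID had the same 4 counts.

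The MeRIP peaks of NF2 were neighbours near the 3' end of the gene. The first joined 2 blocks across a gap of 10589 nt. They were 23 nt and 277 nt in replicate 1, and 23 nt and 248 nt in replicate 2. Such gaps are read here and below as splice junctions, which was not checked against exons. The second, from 29695148 to 29695688 in replicate 1 and to 29695598 in replicate 2, held the best MeRIP score of any Hippo gene. Scores behave as p-values, and lower is better: 6.3e-31 in replicate 1, where 20.3% of the list's peaks scored better, and 7.9e-51 in replicate 2, where 13.3% did.

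The polyA m6A-ORL peaks of NF2 touched the antibody peaks once. A peak of 91 nt at 29695178 to 29695268 lay inside the second MeRIP peak of both replicates. The next, at 29695718 to 29695898, lay 29 nt beyond the end of the MeRIP replicate 1 peak. Further peaks at 29697668 to 29697728 and 29698178 to 29698238 were centred 902 and 392 nt before the end of the gene, where MeRIP listed none. The fifth lay upstream at 29671854 to 29671944, 12195 nt from the nearest MeRIP peak. In NF2 the methods therefore shared 1 stretch, and the m6A-ORL peaks reached closer to the gene end. Most of these m6A-ORL peaks ranked low. For the shared one 65.0% of its list scored better, and for those nearest the gene end 95.9% and 67.8% did. The peak at 29695718 ranked best (41.5%), and with the better-scored part of the list it alone was left, without the shared stretch.

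The MST kinase genes carried little. STK3 (ENSG00000104375; chromosome 8, 98343975 to 98942610, minus strand) had 0 peaks in both MeRIP lists, 1 in the total RNA m6A-ORL list and 0 in the polyA list. STK4 (ENSG00000101109; chromosome 20, 44966512 to 45080021, plus strand) had the same counts, a pattern held by 1956 other gene IDs (14.4%). The STK3 peak (61 nt, score 0.00014) was centred at 19.5% of the gene's span from its start. The STK4 peak (151 nt, score 6e-06) was centred at 95.8%, which is 4745 nt from the gene end. These paralogs thus had their only peaks in different parts of the span.

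SAV1 (ENSG00000151748; chromosome 14, 50633580 to 50668306, minus strand) encodes the adaptor that joins the MST kinases to LATS. MeRIP listed 2 peaks in each replicate, and m6A-ORL listed 1 in the total RNA m6A-ORL list and 0 in the polyA list. All lay in the 5' part of the gene. The MeRIP peak nearest the start was centred 244 nt from it in replicate 1 and 274 nt in replicate 2, with scores of 1.1e-07 and 2.4e-08. The other was centred 3008 and 2993 nt from the start. The m6A-ORL peak (91 nt, 50664676 to 50664766) lay 441 nt from the nearest MeRIP peak, and it was weak, with 91.6% of its list scoring better.

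LATS1 and LATS2, paralogous kinases that phosphorylate YAP1 and WWTR1, had the most MeRIP peaks of the 10 genes. LATS1 (ENSG00000131023; chromosome 6, 149658153 to 149718101, minus strand) had 5 and 5 peaks by MeRIP, 5 in the total RNA m6A-ORL list and 0 in the polyA list. LATS2 (ENSG00000150457; chromosome 13, 20973036 to 21061586, minus strand) had 6 and 5 by MeRIP and 0 in both m6A-ORL lists. The paralogs had similar MeRIP counts and unlike m6A-ORL counts. A peak in both MeRIP lists and no m6A-ORL list, as in LATS2, was listed for 25.1% of gene IDs.

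In LATS1 the methods fell on the same places. Of the 5 m6A-ORL peaks, 4 overlapped MeRIP peaks, 3 of them in both MeRIP lists. The best-scored m6A-ORL peak, with a block of 323 nt at 149679875 to 149680197 and a further block of 7 nt across a gap of 3137 nt, had a score of 1.3e-24. Only 4.86% of its list scored better, the best rank among all Hippo gene peaks, while the MeRIP peaks there scored 5.9e-05 and 0.00029. The best-scored MeRIP peak was at 149683734 to 149684362 in replicate 1 (629 nt, score 1.3e-17) and to 149684183 in replicate 2 (450 nt, score 6.3e-15), and an m6A-ORL peak at 149683675 to 149684063 overlapped it. The best-scored place in LATS1 thus differed between the antibody and the chemical list.

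The remaining LATS1 peaks showed where the lists part. Nearest the gene end, peaks of 151 nt, 121 nt and 330 nt overlapped in MeRIP replicate 1, MeRIP replicate 2 and the total RNA m6A-ORL list, with the MeRIP peaks centred 3782 and 3827 nt from the end. At 149701933 to 149702172 only MeRIP replicate 1 and m6A-ORL overlapped. MeRIP peaks at 149683376 (240 nt and 270 nt) had no overlapping m6A-ORL peak, the nearest being 59 and 29 nt away. The fifth m6A-ORL peak, of 90 nt at 149680347 to 149680436, stood 119 nt from the nearest MeRIP peak.

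In LATS2 the MeRIP replicates matched at 5 places. The widest peaks of all Hippo genes, 926 nt at 20988082 to 20989007 in replicate 1 and 1016 nt at 20988052 to 20989067 in replicate 2, were here, centred at 82.5% of the span, with scores of 1e-24 and 6.3e-19. The next ran from 20983292 to 20983680 in replicate 1 (389 nt, score 7.9e-13) and over 360 nt in replicate 2 (score 7.9e-15). A pair lay near the 3' end, at 97.6% to 98.2% of the span, and a peak of 270 nt lay at 21045844 to 21046113 in each list. A sixth peak, in replicate 1 only, joined a block of 29 nt to a block of 122 nt across a gap of 15115 nt and was centred 194 nt from the gene start. The only m6A-ORL peak in the span belonged to another ID, over the U4 snRNA pseudogene RNU4-9P (21038529 to 21038667, total RNA list), on the same strand as LATS2. It covered that pseudogene from end to end, and assigned by span alone it would count as 1 m6A-ORL peak of LATS2.

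**Figure D2:**
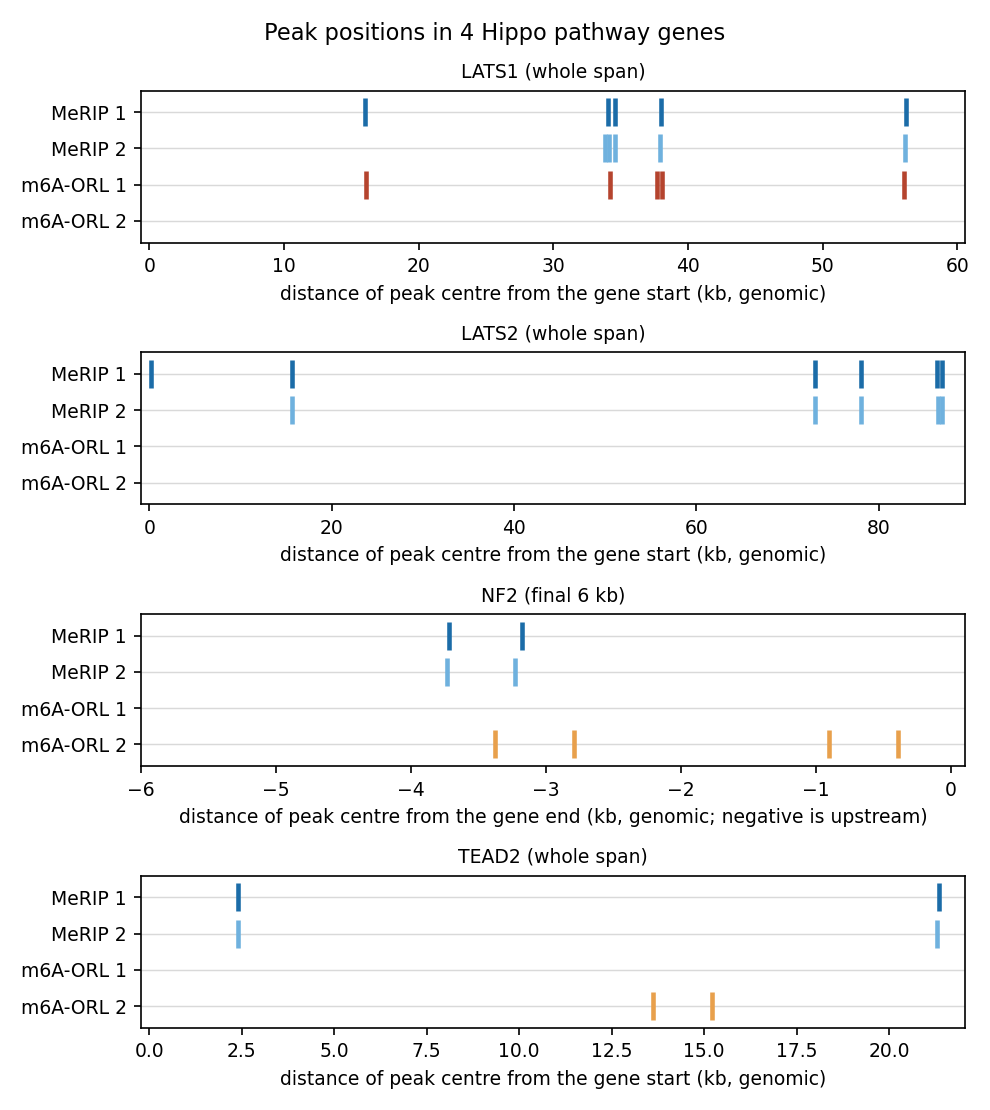
Centres of listed peaks along LATS1, LATS2 and TEAD2 (distance from the gene start in kb of genomic sequence) and along the final 6 kb of NF2 (distance from the gene end), with 1 row per library; the fifth m6A-ORL peak of NF2 lies outside its panel. In LATS1 the total RNA m6A-ORL peaks stand under MeRIP peaks, in LATS2 there are none, and in TEAD2 the polyA m6A-ORL peaks stand between the MeRIP peaks.

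YAP1 (ENSG00000137693; chromosome 11, 102110447 to 102233424, plus strand), the coactivator that LATS1 and LATS2 restrain, had 1 and 1 peak by MeRIP, 1 in the total RNA m6A-ORL list and 0 in the polyA list. All were near the 3' end, centred 3543, 3588 and 3289 nt before it. The MeRIP peak of replicate 1 joined a block of 16 nt to a block of 374 nt ending at 102230075, and that of replicate 2 ran from 102229716 to 102229955. Their scores were 1.6e-12 and 1e-12. The m6A-ORL peak, 102230045 to 102230224 (score 3.7e-06), overlapped the end of the replicate 1 peak and lay 89 nt past that of replicate 2. So the chemical peak began at the edge of the antibody peak.

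YAP1 also had peaks on the strand opposite to it. An ID without a name in the RefSeq table, ENSG00000254422, had a peak at 102229911 to 102230060 in MeRIP replicate 1 (score 0.0015) and at 102230060 to 102230239 in the total RNA m6A-ORL list (score 1.1e-05). Both overlapped the YAP1 peaks of the same libraries in position. The lists give a strand for each peak, but the sources used here do not say how reads were assigned to strands, so reads of YAP1 and of this ID may not have been separated.

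At the start of YAP1 lies the divergent long noncoding RNA YAP1-DT (102109827 to 102110457, minus strand), whose span overlaps the start of YAP1. It had 1 peak in each MeRIP list, at 102109970 to 102110113 in replicate 1 (score 0.0011) and 102110199 to 102110371 in replicate 2 (score 0.00036), which do not overlap, and no m6A-ORL peak. The replicate 2 peak falls inside the YAP1 promoter window of the RefSeq promoter table (GRCh38.p14, chr11:102110197-102110496), and it is the only peak of any list in a promoter window of these genes. Its sequence is shown because it is the stretch of Hippo promoter that a peak covers. It is read from the strand of YAP1-DT, 5′ to 3′, with capitals at a match to CATTCC, the core of the motif bound by TEAD factors:

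YAP1-DT, chr11:102110199-102110371, minus strand: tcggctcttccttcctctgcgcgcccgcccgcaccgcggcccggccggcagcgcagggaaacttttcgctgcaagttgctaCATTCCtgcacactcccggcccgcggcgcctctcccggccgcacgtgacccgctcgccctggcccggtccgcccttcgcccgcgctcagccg

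These 173 nt are 74.6% G and C. They hold no GGAC, the common core of m6A sites, on the transcribed strand, which says only that these letters are not in this window. CATTCC or its reverse complement GGAATG occurs in 14.0% of the 35116 promoter windows of 300 nt in the table. Of the 8 Hippo genes with a window there, YAP1 and LATS2 hold it, each in its only window. LATS1, WWTR1, TEAD2 and NF2 have 2 windows each, so this count by gene is not on the scale of the share by window. TEAD1 and STK3 have no window. The motif was searched after the peak had been seen, and a match is not a bound site.

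WWTR1 (ENSG00000018408; chromosome 3, 149517235 to 149724788, minus strand) encodes TAZ, the paralog of YAP1. It had 0 peaks in both MeRIP lists, 0 in the total RNA m6A-ORL list and 1 in the polyA list. That peak (score 7.4e-06, with 43.0% of its list scoring better) was 90 nt wide and spliced. It joined 16 nt at 149576237 to 149576252 with 74 nt at 149656876 to 149656949 across a gap of 80623 nt. A peak by m6A-ORL and none by MeRIP, as in WWTR1, STK3 and STK4, was listed for 22.7% of gene IDs.

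The TEAD genes encode the DNA-binding partners of YAP1 and TAZ. TEAD1 (ENSG00000187079; chromosome 11, 12674421 to 12944737, plus strand) had 2 and 2 peaks by MeRIP, and 0 in total RNA and 1 in polyA RNA by m6A-ORL. TEAD2 (ENSG00000074219; chromosome 19, 49340595 to 49362416, minus strand) had 2 and 2, 0 and 2. Both were thus listed by m6A-ORL in polyA RNA only, and in both the MeRIP peaks stood near opposite ends of the gene.

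In TEAD1 the first peak began at the first base of the gene in both MeRIP lists. It had identical limits in both, a block of 414 nt and, across a gap of 574 nt, a block of 7 nt, with scores of 4.8e-08 and 5e-09. The m6A-ORL peak crossed the same junction with blocks of 114 nt and 67 nt (score 1.7e-06) and overlapped it. The other MeRIP peak of TEAD1 was 61 nt and 91 nt wide, at 97.2% of the span, with a score of 9.5e-05 in each list. No m6A-ORL peak was near it. TEAD1 was the only Hippo gene in which the methods shared a peak at the start of the gene.

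In TEAD2 no peak was shared between methods. The MeRIP peaks were centred at 11.02% and 97.9% of the span in replicate 1, and at 10.95% and 97.5% in replicate 2. The m6A-ORL peaks, each 90 nt and each across a junction, were centred at 62.4% and 69.7%, with scores of 0.00024 and 6.8e-05. They lay 7483 and 2086 nt from the nearest MeRIP peak.

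Joined by overlap, the peaks of the 10 genes formed 31 places. Of these 18 were in both MeRIP lists and 0 in both m6A-ORL lists. In 7 places a MeRIP and an m6A-ORL peak met: 4 in LATS1 and 1 each in YAP1, TEAD1 and NF2. A further 13 were listed by MeRIP only and 11 by m6A-ORL only. Of the 11, 4 were in NF2, 2 in TEAD2 and 1 each in LATS1, SAV1, STK3, STK4 and WWTR1.

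As shares of peaks, 18 of 20 MeRIP replicate 1 peaks (90%, exact 95% interval 68.3 to 98.8) were overlapped in replicate 2, where the whole list gave 83.6%. In the other direction it was 19 of 19 (82.4 to 100), where the whole list gave 86%. Intervals are exact binomial (Clopper-Pearson) ones. They cover counting error only, and peaks of 1 gene are not independent. Between the m6A-ORL lists 0 of 9 peaks were overlapped in each direction (interval 0 to 33.6%), and the whole lists gave 13.8% for replicate 1 and 19.6% for replicate 2. The Hippo intervals include each of these whole-list values, so no difference was detectable with so few peaks.

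MeRIP peaks of either list overlapped 7 of 18 Hippo m6A-ORL peaks (38.9%, exact 95% interval 17.3 to 64.3), and 51.9% over the whole lists. By library this was 5 of 9 in the total RNA list (55.6%, interval 21.2 to 86.3), where the list as a whole gave 54.7%. In the polyA list it was 2 of 9 (22.2%, interval 2.81 to 60.01), where the whole gave 47.8%. At equal list length the pooled share was 12.5%. Restricted to genes that also had a MeRIP peak, the shares were 5 of 7 (71.4%, interval 29.0 to 96.3) and 2 of 8 (25%, interval 3.19 to 65.1), and 72.4% and 57.7% over all such genes. Conversely, m6A-ORL overlapped 7 of 20 Hippo peaks of MeRIP replicate 1 (35%, where the list gave 33.5%) and 5 of 19 of replicate 2 (26.3%, where it gave 33%). Pooled this was 12 of 39 (30.8%, interval 17.02 to 47.6), against 33.2% over the whole lists. Without m6A-ORL replicate 1 this share was 10.3%. All of these intervals include the whole-list shares.

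The median width without introns of Hippo gene peaks was 210.5 and 270 nt in the MeRIP lists, 151 nt in the total RNA m6A-ORL list and 90 nt in the polyA list. Means of medians were 240.2 ± 42.1 nt and 120.5 ± 43.1 nt (SD, n = 2 each), and p = 0.33 by the exact permutation test, the least it can give. The MeRIP medians were thus above both m6A-ORL medians, with a difference of 119.8 nt. At equal list length the difference was 382.5 nt. That setting keeps peaks by score and left only 9 MeRIP peaks in these genes, so the 2 differences rest on different peaks. Widths ranged from 60 to 926 and 60 to 1016 nt by MeRIP, from 61 to 389 nt in the total RNA list and from 61 to 181 nt in the polyA list. Of all peaks in each list the medians were 211, 211, 142 and 149 nt in that order.

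**Figure D3:**
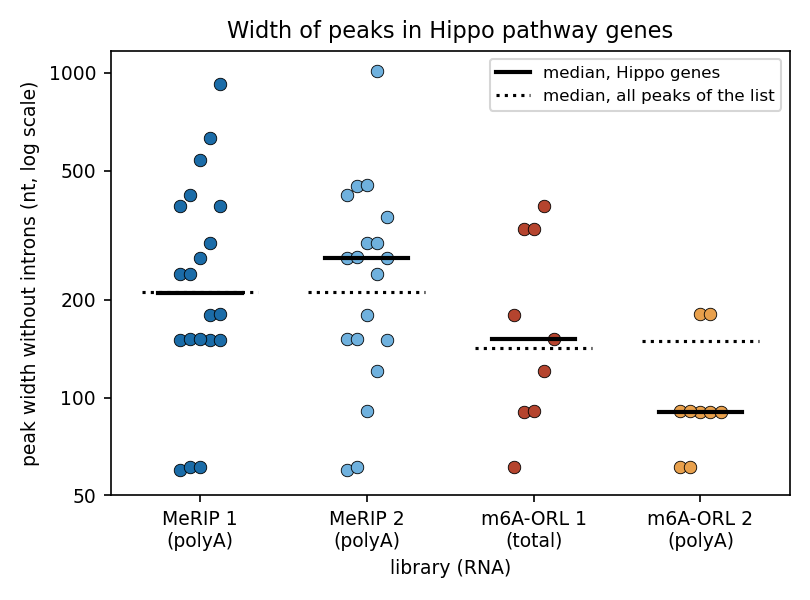
Width without introns (nt, log scale) of every Hippo gene peak (points) in each library, with the median of these peaks (solid line) and of all peaks in the list (dotted line). The polyA m6A-ORL peaks of Hippo genes reach 181 nt at most, and the MeRIP peaks reach 926 and 1016 nt.

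Peaks of more than 1 block, read as crossing a splice junction, were 4 of 20 and 2 of 19 by MeRIP. They were 1 of 9 in the total RNA m6A-ORL list and 4 of 9 in the polyA list. In the whole lists 16.9%, 16.3%, 9.88% and 27.8% of peaks had more than 1 block. In the final 10% of the span lay 8 of 20 (40%) and 8 of 19 (42.1%) MeRIP peaks, and 3 of 9 (33.3%) and 4 of 9 (44.4%) m6A-ORL peaks. The means of 41.1% ± 1.49 and 38.9% ± 7.86 (SD, n = 2 each) did not differ beyond the spread of the libraries (difference 2.16 points; p = 1, exact permutation test), and the difference turned to -3.39 points without m6A-ORL replicate 1. In the final 20% of the span lay 50% and 52.6% of MeRIP and 33.3% and 44.4% of m6A-ORL peaks of these genes, a difference of 12.4 points in which the methods' values did not overlap (p = 0.33, exact permutation test, the least it can give). Over all named genes the shares in the final 10% were 36.6% and 36.5%, and 32.3% and 28.2%, so there too the methods' values did not overlap. The final 20% was not taken over all genes, so its difference cannot be called particular to the Hippo genes. Exons of the files' build were not used here, so exonic or UTR placement is not given.

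The other genes of the pathway came from 3 lists drawn from general knowledge of it. Of 18 upstream regulators, 17 had an assigned peak (CRB3 had none), 14 in both MeRIP lists and 3 in both m6A-ORL lists. Of 25 partners and antagonists of the core, the numbers were 19, 15 and 8. Of 19 transcriptional targets of YAP1, TAZ and TEAD they were 11, 11 and 3. The backgrounds are again 65.9% and 19.3%, and they cover only genes with a peak. Each of the 3 lists thus held genes found by m6A-ORL in both RNA types, and the 10 core genes held none. With the better-scored part of each list the upstream regulators held none either, and the difference was not tested. At equal list length the numbers in both MeRIP lists were 6, 9 and 7.

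**Figure D4:**
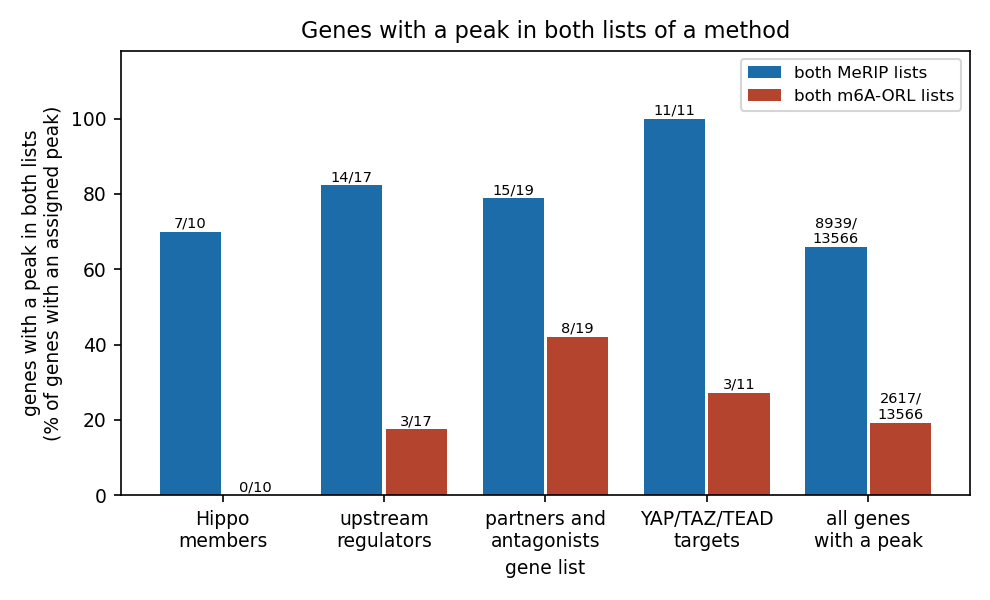
Share of genes with a peak in both lists of a method (percent of the genes with an assigned peak; fractions above the bars) for the Hippo genes, 3 further pathway lists and all gene IDs with a peak. The Hippo genes stand at 7 of 10 by MeRIP and 0 of 10 by m6A-ORL, and all gene IDs at 8939 and 2617 of 13566.

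Among upstream regulators the atypical cadherin FAT1 had 16 and 14 MeRIP peaks and 13 and 1 by m6A-ORL. Its relative FAT4 had 7 and 10, and 4 and 0. The cadherin DCHS1, a ligand of FAT4, had 5 and 5 by MeRIP and 0 by m6A-ORL. The polarity protein gene SCRIB had 1 and 2, and 0 and 5, and the kinase gene TAOK2, whose product phosphorylates MST kinases, 6 and 4, and 0 and 5. MARK2 (2 and 2, 1 and 1) and TNIK (2 and 1, 1 and 1), also kinase genes, completed the 3 genes with peaks in all lists. Of the 14 regulators with any m6A-ORL peak, 11 had it in 1 list only, near the 71.2% of all gene IDs with an m6A-ORL peak.

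Among the partners and antagonists, 7 genes of the 19 had peaks in all lists, against 15.8% of gene IDs. The angiomotins, which bind YAP1 and hold it in the cytoplasm, were all among them: AMOT had 3 and 3 MeRIP peaks, 6 and 4 by m6A-ORL, AMOTL1 3 and 3, and 3 and 4, and AMOTL2 4 and 5, and 1 and 1. The phosphatase gene PTPN14, whose product also binds YAP1, had 1 and 2, and 2 and 2. CSNK1D, a casein kinase that acts on YAP1 after LATS, had 8 and 6, and 3 and 8. YWHAZ, a 14-3-3 protein gene, had 3 and 3, and 3 and 2. STRN4, of the STRIPAK phosphatase complex that opposes MST, had no MeRIP peak and 0 and 6 by m6A-ORL. TEAD4 had 3 and 2, and 1 and 0, AJUBA, a LATS inhibitor, 3 and 2 and none, and the LATS relative STK38 3 and 3 and none. For 6 genes of this list, CSNK1E, LIMD1 and MOB1A among them, no ID was assigned. An ID over CSNK1E also lies in a readthrough gene (5 and 5 by MeRIP, 7 and 9 by m6A-ORL), and a peak of the total RNA list overlapped the span of MOB1A. Peaks of all lists overlapped the span of LIMD1, counted on either strand (5 and 4 by MeRIP, 2 and 1 by m6A-ORL). Assigned by span, 17 genes of this list had a peak in both MeRIP lists and 10 in both m6A-ORL lists.

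Of the targets, CCN1, a secreted matrix protein gene and standard readout of YAP1, had 2 and 2 MeRIP peaks and 1 and 1 by m6A-ORL. FJX1 had 2 and 2, and 5 and 3, and FOXF2 3 and 4, and 3 and 5. ARHGEF17 (7 and 7, 0 and 1), CCDC80 (3 and 4), NUAK2 (3 and 3) and ASAP1 (1 and 1, 2 and 0) were listed by MeRIP in both replicates too. ANKRD1, AXL and CCN2, also widely used as readouts, were among 8 targets with no assigned peak. All 11 targets with a peak had it in both MeRIP lists, as 85.2% of gene IDs with any MeRIP peak did, and 6 of them had none by m6A-ORL, where 38.1% of gene IDs in both MeRIP lists had none.

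Near the annotated starts of these other genes, RefSeq promoter windows give sequence under peaks. SLMAP, a STRIPAK member, is shown because MeRIP peaks of both replicates and the total RNA m6A-ORL peak cover 2 matches to GGACT (searched on the strand of the gene), and FJX1 and AJUBA because MeRIP peaks of both replicates cover 1 each. The matches are in capitals:

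SLMAP, chromosome 3, match at 57757124, plus strand: cactccgggcgaGGACTggcggtggctgc

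SLMAP, chromosome 3, match at 57757178, plus strand: ttcggcccaaaaGGACTttcctggccgcg

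FJX1, chromosome 11, match at 35618453, plus strand: gggaagcggcggGGACTcgagttcccagc

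AJUBA, chromosome 14, match at 22982515, minus strand: agatagacctgcGGACTggacagccg

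GGACT is found on the gene's strand in 25.3% of the promoter windows, so matches of this kind are common. Counted from the start site of the window, they lie at -132 and -78 in SLMAP, -7 in FJX1 and 37 in AJUBA. Those of SLMAP and FJX1 are thus upstream of that start site. The SLMAP matches still lie inside the gene's span, which begins at 57756309. The FJX1 match lies before its gene's span, which begins at 35618460. Peaks in the windows of TNIK, AMOT, AMOTL2, PTPN14 and FOXF2, among others, cover no GGAC. No Hippo core gene had a peak of its own in a promoter window, although the TEAD1 peak began at the first base of a gene that has no window in the table.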

How the data were processed

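Peak lists of the 4 captured libraries were used as the authors deposited them: 12 BED columns with position, strand, blocks, an Ensembl gene ID and a score, per the file headers. The deposited scores lie between 0 and 0.0081 and have the form of a p-value or q-value. The sources used here do not say which, nor name the input or threshold of peak calling. Tools named per the submitters' processing notes are Trim Galore, STAR and HOMER, with build hg38. Each list is of 1 library.

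Exact duplicate lines were removed (1 to 4 per list). An ID took a RefSeq name (GRCh38.p14) when at least 90% of its peak bases lay in 1 gene span on a compatible strand, with ties broken first by a 3-fold excess of bases, then by elimination. Where the tables give no strand, a name was dropped if an unnamed ID on the other strand had more peak bases in the span. This named 10615 of 13566 IDs (78.2%), all 10 Hippo genes among them. Overlap means at least 1 nt of blocks on the same strand. Method means were compared by exact two-sided permutation over libraries. Scripts ran in Python 3.11.15 (pandas 2.3.3, scipy 1.17.1) and were tested on simulated peaks. Alternatives were a stricter score, equal list length, assignment by span, duplicates kept, merging within 100 nt, other overlap minimums, the final 20% of the span, 1 list per method and each library left out. The Hippo genes and the lists were chosen with earlier results of these data known. All 10 Hippo genes were named. In the other lists, genes with a peak in all 4 libraries, up to 4 more with the most peaks and up to 3 with no assigned peak were named, except 1 gene that is not reported here, and SLMAP was added for its sequence after its values were seen. No exon annotation or genome was used, so the planned placement in exons and the motif search in Hippo gene peaks were not run.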

Additional observations from a re-analysis of the deposited data

How the results depend on the processing

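With the better-scored part of each list, 4 Hippo genes had a peak in both MeRIP lists, upstream regulators had 7 by MeRIP and 0 by m6A-ORL, partners had 4 by m6A-ORL, and the difference in peaks of the final 10% of the span turned to -6.25 points. At equal list length the difference in Hippo peaks per list turned to -3.5, MeRIP counts were 3 Hippo genes, 6 upstream regulators, 9 partners and 7 targets, and MeRIP overlapped 12.5% of Hippo m6A-ORL peaks. The difference in median width was 382.5 nt there, with 9 MeRIP peaks of Hippo genes left, against 119.8 nt. Fewer peaks enter both settings by construction. Counting a peak in at least 1 list, m6A-ORL had 9 Hippo genes, 14 upstream regulators, 15 partners and 5 targets. Leaving out each library gave 0 to 5 Hippo genes by m6A-ORL (4 and 5 when it rests on replicate 2 or 1 alone), 3 to 9 upstream regulators, 8 to 12 partners, 10.3% to 35% of Hippo MeRIP peaks overlapped and -3.39 to 7.72 points at the gene end. With the replicate number as a block, the difference of 10.5 peaks had an exact permutation p = 0.5, the smallest that 2 pairs allow. The replicate differences of the methods did not correlate (r = 0.0012 across 13566 gene IDs, which are not independent replicates). Because the m6A-ORL replicates also differ in RNA type, this cannot show whether the numbers pair the libraries. Assignment by span, duplicates, merging and other overlap minimums moved no count by over 1.5 times, except that assignment by span gave LATS2 1 m6A-ORL peak, and no share of overlapped peaks out of its interval. The difference at the gene end, 2.16 points for the final 10% of the span, was 3.83 with assignment by span, 5.69 with merging and 12.4 for the final 20%. With 9 m6A-ORL peaks per list, a share of 0 allows up to 33.6%.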
